A study of Homo sapiens with 15 samples.

Results

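The 43 genes described here encode the core of the lysosome and of the autophagy pathway that feeds it. They were chosen by name: 5 lysosomal membrane proteins, 9 lysosomal proteases, 8 other hydrolases, 3 soluble cofactors, 5 parts of the proton pump, 3 transcription factors of the MiT/TFE family, 6 genes that start and elongate the autophagosome, and 4 genes of the ATG8 proteins and their cargo receptor. All 43 were found by Ensembl identifier among the 60675 genes of the deposited tables, and all 43 were among the 19012 genes that passed the filter on low counts. Gene-level read counts were measured by polyA RNA-seq in 15 libraries of H9, an established human embryonic stem cell line, on day 7 of differentiation toward bone-forming cells. In every group differentiation began spontaneously in serum medium, to which ascorbic acid, β-glycerophosphate and vitamin D3 were added on day 5. Exposure ran through all 7 days. The 5 groups of 3 libraries were fine particulate matter at its IC50 of 1.4 µg/mL (FPM_IC50) and its IC25 of 0.00062 µg/mL (FPM_IC25), a NIST standard reference material at its IC50 of 5.9 µg/mL (SRM_IC50) and its IC25 of 0.003 µg/mL (SRM_IC25), and cultures that received only the vehicle, DMSO at 0.1% (UNT). The inhibitory concentrations were based on protein, per the labels, and the FPM and SRM doses of one level differ. The labels name a single cell line and do not say that replicates came from separate cultures, so p-values measure the spread between these libraries, which may be technical.

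Library totals ranged from 9.34 to 58.2 M counts, and the lowest count of any of the 43 genes in any library was 22. Genes annotated as antisense took 1.03 to 1.5% of counts at FPM_IC50 and 0.942 to 1.27% at FPM_IC25, against 0.274 to 0.319% in the other 9 libraries, so the FPM libraries stood apart. Exons of 18 of the 43 genes overlap exons of a gene on the other strand, and the strand setting of the authors' counting is not given in the sources used here. Of 13 osteoblast genes, 9 passed the filter on low counts and 4 did not. Among the 9, the highest level in any library was 833 CPM (counts scaled by TMM to a common library size) for COL1A2, 551 CPM for SPP1, 167 CPM for ALPL and 1.78 CPM for SP7. The 4 below the filter were IBSP, at 0 in 13 of 15 libraries, BGLAP, PHEX and DMP1, none above 0.543 CPM. POU5F1 and LIN28A of the pluripotent state reached 778 and 1210 CPM.

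Lysosomes are acidic organelles in which hydrolases break down material brought in by endocytosis or by autophagosomes. A proton pump, the V-ATPase, acidifies the lumen and activates the proteases, and membrane glycoproteins line the inner face. TFEB, TFE3 and MITF are related transcription factors that bind a palindromic E-box in the promoters of many lysosomal and autophagy genes. The kinase complex mTORC1 keeps TFEB and TFE3 in the cytoplasm while nutrients are plentiful, largely by phosphorylation, so the mRNA of a factor is a separate quantity from its activity.

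That E-box was searched in RefSeq start windows of 300 bases (GRCh38.p14, 250 bases before to 50 after each listed start), where 33 of the 43 genes had at least 1 window. The 33 genes had 50 windows, up to 8 each, and all 27305 genes had 35097. A gene counted where any of its windows held a motif, so more windows give more chances of a match. The letters TCACGTGA are a palindrome and so the same on both strands. They stood in a window of 5 of the 33 genes (15.2%) and of 321 of 27305 genes overall (1.18%). The longer CLEAR palindrome, which is TCACGTGA with G before and C after it, stood in GAA and MCOLN1 (6.06% of the 33, against 0.421% overall), and the core CACGTG, contained in both, in 9 genes (27.3%, against 8.77%). The 5 windows are printed because they show the E-box in genes of different lysosomal roles, and the capitals mark TCACGTGA. Each runs 5′ to 3′ on the gene's strand and ends at or before the base ahead of the RefSeq start.
LAMP1, chr13:113297188-113297238, plus strand: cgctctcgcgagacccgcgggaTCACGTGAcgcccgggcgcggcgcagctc
MCOLN1, chr19:7522560-7522623, plus strand: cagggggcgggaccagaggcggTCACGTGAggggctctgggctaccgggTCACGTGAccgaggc
GAA, chr17:80101482-80101578, plus strand: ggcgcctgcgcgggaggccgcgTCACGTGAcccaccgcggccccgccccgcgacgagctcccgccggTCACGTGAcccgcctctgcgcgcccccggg
CTSA, chr20:45891287-45891334, plus strand: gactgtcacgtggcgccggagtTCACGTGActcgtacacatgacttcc
ATP6V0D1, chr16:67481188-67481239, minus strand: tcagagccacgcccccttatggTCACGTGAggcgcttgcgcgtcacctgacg
GAA and MCOLN1 each carry the motif at 2 places within the printed stretch, and the other 3 genes carry it there at 1. The LAMP1 window holds a second match that lies across the start, of which the printed stretch, ending ahead of the start, shows only the first letters. A match describes the letters and is not a measured binding site.

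GLB1 and CTSL, the hydrolase and the protease with the lowest log2 fold changes at SRM_IC50, hold none of the 3 forms in their windows, nor do the 3 listed start windows of TFEB. The 100 bases before the start of GLB1 and CTSL are printed in lower case, and these genes were picked by their fall at SRM_IC50.
GLB1, chr3:33096823-33096922, minus strand: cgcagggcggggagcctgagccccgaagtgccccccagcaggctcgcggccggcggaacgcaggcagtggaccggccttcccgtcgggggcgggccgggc
CTSL, chr9:87726019-87726118, plus strand: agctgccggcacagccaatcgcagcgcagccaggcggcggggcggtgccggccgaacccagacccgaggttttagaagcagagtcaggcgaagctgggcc
The lack of a match says only that these letters are not in these windows.

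In the vehicle controls the 43 genes covered a 292-fold range of FPKM, the deposited level per length of transcript. PSAP, the precursor of the saposins that help hydrolases degrade sphingolipids, was highest at 299 ± 23.3 FPKM (SD, n = 3), and CD63, a tetraspanin of late endosomes, followed at 172 ± 35.5 FPKM. CTSL, a cysteine protease, stood at 76.3 ± 13.8 FPKM, NPC2, a cholesterol-binding protein, at 54.4 ± 7.43 FPKM and GLB1 at 53.2 ± 4.03 FPKM. NPC2 and GLB1 differed by less than their SDs. At the other end were TFEB at 1.51 ± 0.228 FPKM, MITF at 1.22 ± 0.0877 FPKM and the protease CTSF at 1.03 ± 0.288 FPKM, while the third family member, TFE3, was far above them at 15.3 ± 0.946 FPKM. The coefficient of variation of the 43 genes over the 3 UNT libraries had a median of 7.73% and ran from 1.6 to 30.3%.

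At SRM_IC50 the calls against the vehicle controls were mostly on the lower side. Of the 30 genes of the lysosome itself 8 were lower and 1 was higher, of the 10 autophagosome genes 1 was lower, and of the 3 transcription factors 2 were lower. The lowest log2 fold changes were those of TFEB, GLB1 and CTSL, at -1.93, -1.45 and -1.44. By edgeR's quasi-likelihood test with Benjamini-Hochberg adjustment over all genes, 11 of the 43 genes were lower and 1, LIPA, was higher at an adjusted p under 0.05, the threshold for every call below. That is 27.9% of the 43, beside 17.6% called among all genes tested. The lower calls alone were 25.6% of the 43, beside 9.59% of all genes, and the single higher call stands beside 7.96% of all genes. The median log2 fold change of the 43 genes was -0.19, against 0.00 over all genes tested, and 36 of the 43 fitted values were below 0. Values of the groups did not overlap in 20 of the 43 genes (46.5%), beside 29.7% of all genes tested. In such bulk samples, fewer cells of a type and less RNA per cell cannot be told apart.

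**Figure D1:**
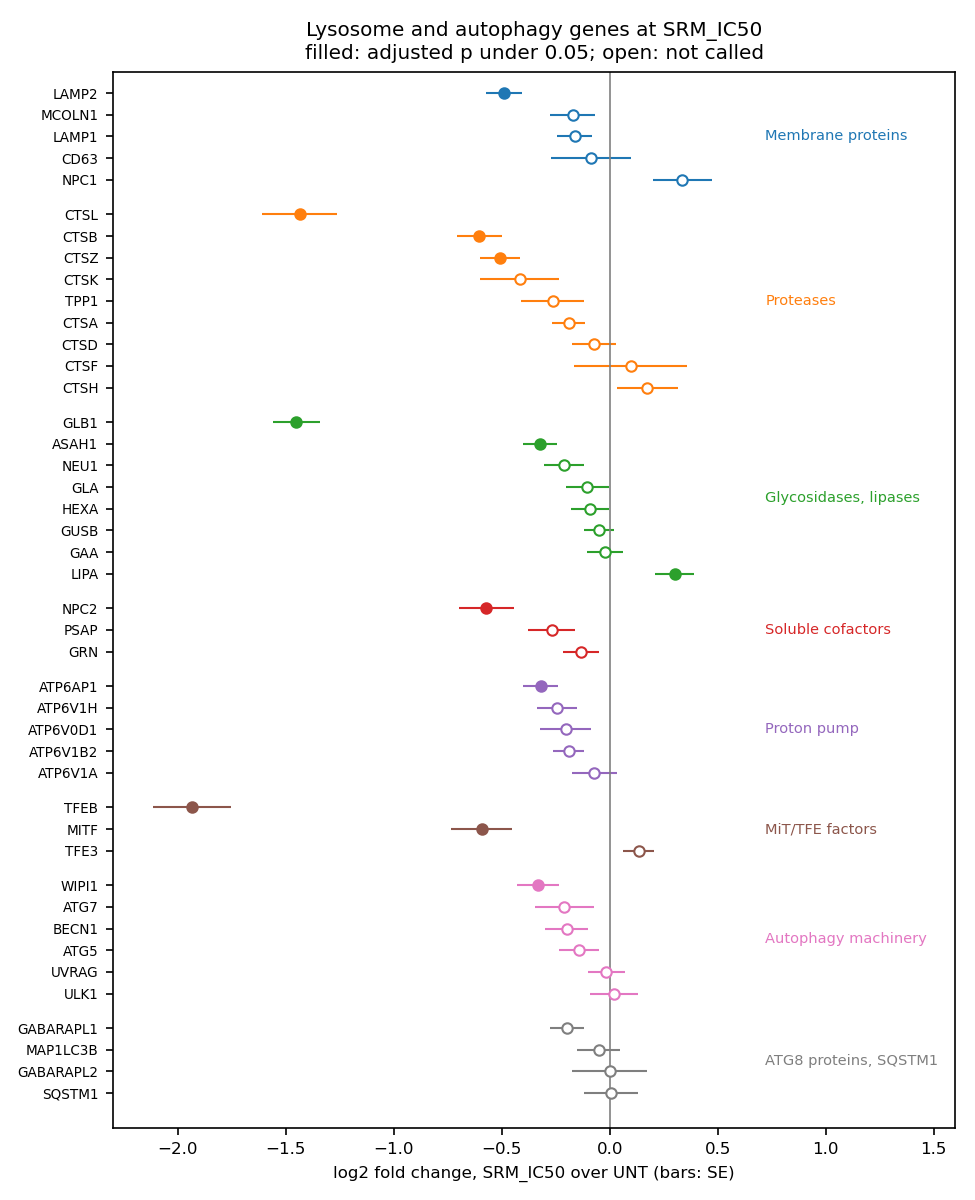
Log2 fold change of each of the 43 genes at SRM_IC50 over UNT, with its standard error as a bar, grouped and coloured by role; filled points have an adjusted p under 0.05 in edgeR's quasi-likelihood test. TFEB, GLB1 and CTSL lie furthest left at -1.93, -1.45 and -1.44, and LIPA is the only filled point right of 0.

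Of the 3 transcription factors 2 fell. TFEB (GRCh38 with GENCODE 29, chromosome 6, 41683978 to 41736259, minus strand) was at 2.24, 2.24 and 2.46 CPM in the 3 SRM_IC50 libraries, against 7.07, 9.28 and 10.1 CPM in UNT. It stood at 8.96, 9.96 and 12.8 CPM at FPM_IC50, 8.64, 8.68 and 10.2 CPM at FPM_IC25 and 9.23, 10.4 and 8.44 CPM at SRM_IC25. All 3 SRM_IC50 libraries thus lay below all 12 others, and the other 4 groups overlapped each other. The log2 fold change against UNT was -1.93 (SE 0.18, adjusted p = 1.36e-06), a 3.82-fold lower level. On the log2(FPKM + 1) scale, which understates changes of low genes, it was -0.83. MITF (chromosome 3, 69739435 to 69968337), best known from pigment cells and osteoclasts, was at 6.54, 5.85 and 5.45 CPM at SRM_IC50, against 9.30, 8.40 and 9.45 CPM in UNT. The groups did not overlap, and the log2 fold change was -0.59 (SE 0.14, adjusted p = 0.00724). On the log2(FPKM + 1) scale it was -0.29. At SRM_IC25 MITF was at 6.28, 5.77 and 8.32 CPM, also below all UNT values. That difference was log2 -0.43 (SE 0.14, adjusted p = 0.085), not called by edgeR but called by DESeq2 (adjusted p = 0.0492). Between the SRM doses the MITF values overlapped, at log2 -0.16 (adjusted p = 0.45 by edgeR). TFE3 (chromosome X, 49028726 to 49043486) was at 76.1, 73.3 and 72.2 CPM at SRM_IC50, against 69.5, 63.9 and 68.7 CPM in UNT. Its SRM_IC50 values were all above those of UNT by a small margin, and the difference did not pass the test (log2 0.13, SE 0.072, adjusted p = 0.246).

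Of the 9 lysosomal proteases, 3 cathepsins fell and 6 did not pass the test. CTSL (chromosome 9, 87725519 to 87731393) encodes cathepsin L, an endopeptidase, and was at 60.1, 63.4 and 84.4 CPM at SRM_IC50, against 148, 188 and 224 CPM in UNT. Its level was 2.70-fold lower (log2 -1.44, SE 0.17, adjusted p = 1.97e-05), and the highest SRM_IC50 library stayed below the lowest of every other group. CTSB (chromosome 8, 11842524 to 11869448), cathepsin B, was at 131, 131 and 148 CPM at SRM_IC50, against 193, 199.8 and 230.5 CPM in UNT (log2 -0.60, SE 0.10, adjusted p = 0.000550). CTSZ (chromosome 20, 58995185 to 59007247), a carboxypeptidase, was at 44.6, 46.3 and 47.9 CPM at SRM_IC50, against 63.6, 61.8 and 71.8 CPM in UNT (log2 -0.51, SE 0.093, adjusted p = 0.000935). In all 3 genes the SRM_IC50 and UNT libraries were fully apart. CTSD, the aspartic protease cathepsin D, was at 130.2, 127 and 151 CPM at SRM_IC50, against 129.5, 141 and 158 CPM in UNT, and the groups overlapped (log2 -0.07, adjusted p = 0.722). The other 5 proteases, CTSA, CTSF, CTSH, CTSK and TPP1, had log2 fold changes between -0.42 for CTSK, the collagenase of osteoclasts, and 0.17 for CTSH.

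Among the 8 other hydrolases GLB1 fell most. GLB1 (chromosome 3, 32996608 to 33097230) encodes the lysosomal β-galactosidase and was at 83.5, 91.0 and 87.9 CPM at SRM_IC50, against 233, 222 and 263 CPM in UNT. The 9 libraries of the other exposures lay between 229 and 322 CPM, so the 3 SRM_IC50 libraries were below all 12 others. The level was 2.74-fold lower than in UNT (log2 -1.45, SE 0.11), with the smallest adjusted p of the 43 genes, 1.64e-07. The exons it shares with the other strand belong to 2 pseudogenes, SEC13P1 and SUMO2P10, both at 0 CPM in the SRM_IC50 libraries. ASAH1, the acid ceramidase, was at 50.1, 53.4 and 50.2 CPM at SRM_IC50, against 61.2, 65.8 and 65.4 CPM in UNT (log2 -0.32, SE 0.079, adjusted p = 0.00857). LIPA, the lysosomal acid lipase, was the one gene that rose, at 30.2, 31.1 and 31.3 CPM in SRM_IC50 libraries, against 26.6, 25.1 and 23.4 CPM in UNT (log2 0.30, SE 0.091, adjusted p = 0.0309). The groups did not overlap. The LIPA call remained without UNT replicate 1 and ended without each of the other 5 libraries in turn, with adjusted p from 0.0574 to 0.121. The call of ASAH1 ended with a correction for GC content (adjusted p = 0.0517). GAA, GLA, GUSB, HEXA and NEU1 were not called, at log2 fold changes between -0.21 and -0.02.

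**Figure D2:**
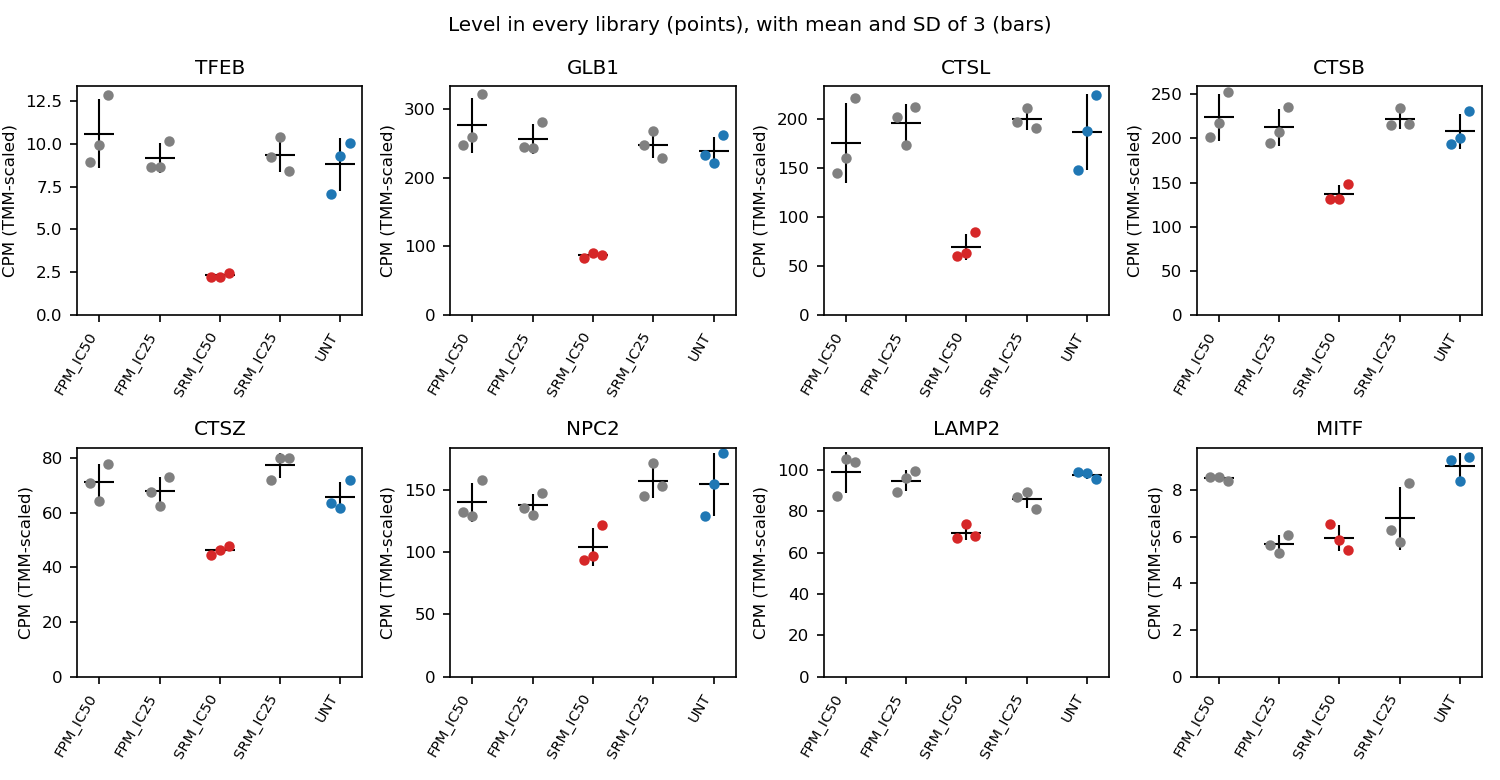
TMM-scaled CPM of 8 of the genes that fell at SRM_IC50, in each of the 15 libraries, as points with the mean and SD of 3; the groups run FPM_IC50, FPM_IC25, SRM_IC50, SRM_IC25 and UNT on each axis. In TFEB, GLB1, CTSL, CTSB, CTSZ, NPC2 and LAMP2 the 3 SRM_IC50 points lie below all 12 other points. In MITF the FPM_IC25 points span a like range, and the SRM_IC25 points overlap those of SRM_IC50.

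One of 5 membrane proteins fell. LAMP2 (chromosome X, 120427827 to 120469365), a glycoprotein of the lysosomal membrane that also serves chaperone-mediated autophagy, was at 66.8, 73.7 and 68.0 CPM at SRM_IC50, against 99.0, 98.6 and 95.4 CPM in UNT (log2 -0.49, SE 0.084, adjusted p = 0.000544). Its close relative LAMP1 was at 219.6, 201 and 209 CPM at SRM_IC50, against 225, 242 and 238 CPM in UNT. The LAMP1 values were also apart, but by a smaller margin that did not pass the test (log2 -0.16, SE 0.081, adjusted p = 0.205). MCOLN1, a calcium channel of the lysosome, CD63 and the cholesterol exporter NPC1 had log2 fold changes of -0.17, -0.09 and 0.34, none called. NPC2 (chromosome 14, 74476192 to 74494177), the soluble partner that hands cholesterol to NPC1, was at 94.0, 96.7 and 122 CPM at SRM_IC50, against 129, 155 and 179.5 CPM in UNT. Its values did not overlap and the difference passed the test (log2 -0.57, SE 0.13, adjusted p = 0.00460). The other 2 soluble cofactors, PSAP and progranulin (GRN), were at log2 -0.27 and -0.13 and were not called.

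All 5 parts of the proton pump had fitted values below 0, and 1 passed the test. ATP6AP1, an accessory subunit, was at 81.8, 77.3 and 83.2 CPM at SRM_IC50, against 94.4, 102 and 106 CPM in UNT (log2 -0.32, SE 0.080, adjusted p = 0.00993). The groups did not overlap. The call ended without UNT replicate 3 (adjusted p = 0.0652) and without SRM_IC50 replicate 2 (adjusted p = 0.0673). ATP6V1A, ATP6V1B2, ATP6V1H and ATP6V0D1, subunits of the catalytic head, its regulator and the membrane sector, ranged from log2 -0.24 to -0.07.

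The median log2 fold change of the 10 autophagosome genes was -0.10. The one called was WIPI1, which binds phosphoinositide on the forming membrane, at 19.3, 21.0 and 23.3 CPM in SRM_IC50 libraries, against 25.0, 25.8 and 28.9 CPM in UNT (log2 -0.33, SE 0.099, adjusted p = 0.0272). The groups did not overlap. The call remained without UNT replicate 1 and without SRM_IC50 replicate 3, and ended without each of the other 4 libraries in turn, with adjusted p from 0.0617 to 0.146. WIPI1 shares 955 of its 3402 exon bases with genes on the other strand, ARSG among them, which averaged 4.02 ± 0.828 CPM at SRM_IC50 and 6.91 ± 0.853 CPM in UNT. SQSTM1, the p62 cargo receptor, was at 158, 142 and 189.6 CPM at SRM_IC50, against 137, 168 and 182 CPM in UNT, a log2 fold change of 0.01 (SE 0.12). MAP1LC3B, the LC3 protein that coats the autophagosome, was at 96.3, 108 and 119 CPM at SRM_IC50, against 106, 110.2 and 119 CPM in UNT (log2 -0.05, SE 0.098). In both genes the groups overlapped. GABARAPL1 and GABARAPL2, LC3 relatives, were at log2 -0.20 and 0.00. The kinase ULK1, the BECN1 and UVRAG lipid kinase subunits and the conjugation factors ATG5 and ATG7 lay between log2 -0.21 and 0.02, none called.

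The 5 genes with TCACGTGA in the printed windows were LAMP1, MCOLN1, GAA, CTSA and ATP6V0D1. Their log2 fold changes at SRM_IC50 against UNT were -0.16, -0.17, -0.02, -0.19 and -0.20, and none was called. In the contrast of SRM_IC50 against SRM_IC25, 44.2% of the 43 genes and 13.2% of all genes were called lower. There the log2 fold changes of LAMP1, MCOLN1, GAA, CTSA and ATP6V0D1 were -0.24, -0.41, -0.26, -0.34 and -0.28. All but ATP6V0D1 (adjusted p = 0.102) were called. All 4 of these calls ended with a correction for GC content. GAA also ended without each of the 6 libraries in turn (adjusted p up to 0.0774), and LAMP1 without SRM_IC25 replicate 1 or 2 or SRM_IC50 replicate 2 or 3 (adjusted p up to 0.141). GLB1 and CTSL, whose stretches are printed without it, were against UNT at -1.45 and -1.44. They were picked for printing by their fall in that contrast, so these values say nothing about the motif.

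Marker genes of other cell states moved with the same contrast. The summed level of 17 amnion and trophoblast genes was 523 to 593 CPM at SRM_IC50, against 2256 to 2660 CPM in UNT, and all 17 passed the test as lower. The summed level of 13 pluripotency genes was 3224 to 3703 CPM at SRM_IC50, against 2118 to 2353 CPM in UNT, with 9 of 13 called higher and none lower. Over 15 markers of macrophages and osteoclasts, cells rich in lysosomes, the summed level was 23.5 to 27.1 CPM at SRM_IC50, against 33.8 to 38.8 CPM in UNT. The highest of them in any library was MMP9 at 36.0 CPM, followed by CSF1R at 8.82 CPM. Of these 15 markers 10 were below the filter, PTPRC, CD68, CD14 and SPI1 among them, and none of the 10 exceeded 0.682 CPM in any library. Of the 5 tested, CSF1R and MMP9 were lower at SRM_IC50 and TNFRSF11A and CALCR higher. The summed level of the 43 genes was 3708 to 4233 CPM at SRM_IC50, against 4347 to 5093 CPM in UNT. The part of these markers in the lysosomal differences was not tested.

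At the lower SRM dose 1 of the 43 genes was called against UNT (2.33%, beside 4.37% of all genes, of which 3.38% lower and 0.989% higher), and the median log2 fold change was 0.05. This gene was ATG5, whose product carries ATG12 in the complex that lipidates LC3. It was at 40.3, 42.9 and 34.8 CPM at SRM_IC25, against 50.5, 57.1 and 56.2 CPM in UNT, without overlap (log2 -0.47, SE 0.094, adjusted p = 0.0228). The call ended without UNT replicate 2 or 3 and without SRM_IC25 replicate 2 or 3, with adjusted p from 0.0667 to 0.164, and with a correction for GC content (adjusted p = 0.632). TFEB, GLB1 and CTSL were at log2 0.10, 0.05 and 0.10 at this dose, and their values overlapped those of UNT. Of 13 pluripotency markers 5 were called lower at SRM_IC25 and none higher. Their summed level was 1671 to 1712 CPM, against 2118 to 2353 CPM in UNT, and its part in the ATG5 difference was not tested.

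At the FPM doses the calls fell on autophagy genes and transcription factors. ATG7 was higher and ATG5 lower at both doses, and MITF was lower and TFE3 higher at FPM_IC25. The medians over the 30 genes of the lysosome itself were -0.01 at FPM_IC50 and -0.04 at FPM_IC25. Over the 43 genes, 2 were called at FPM_IC50, 1 each way (4.65%, beside 13.6% of all genes), and 4 at FPM_IC25, 2 each way (9.30%, beside 14.2% of all genes). Of all genes, 10.8% were higher and 2.77% lower at FPM_IC50, and 10.7% were higher and 3.51% lower at FPM_IC25. At an unadjusted p under 0.05 the counts were 7 of 43 at FPM_IC50 (16.3%, beside 24.1% of all genes) and 9 at FPM_IC25 (20.9%, beside 25.2%). Pluripotency markers moved with these contrasts, with 4 of 13 called lower at FPM_IC50 and 7 of 13 at FPM_IC25. Their summed level was 1643 to 1995 CPM at FPM_IC50 and 1601 to 1637 CPM at FPM_IC25, against 2118 to 2353 CPM in UNT, and its part in the differences was not tested. Of 17 amnion and trophoblast genes 4 were called higher at FPM_IC50 and 0 at FPM_IC25, and their part was likewise not tested. All 4 exposures share the UNT libraries, so their values against UNT are given side by side and not compared with each other.

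**Figure D3:**
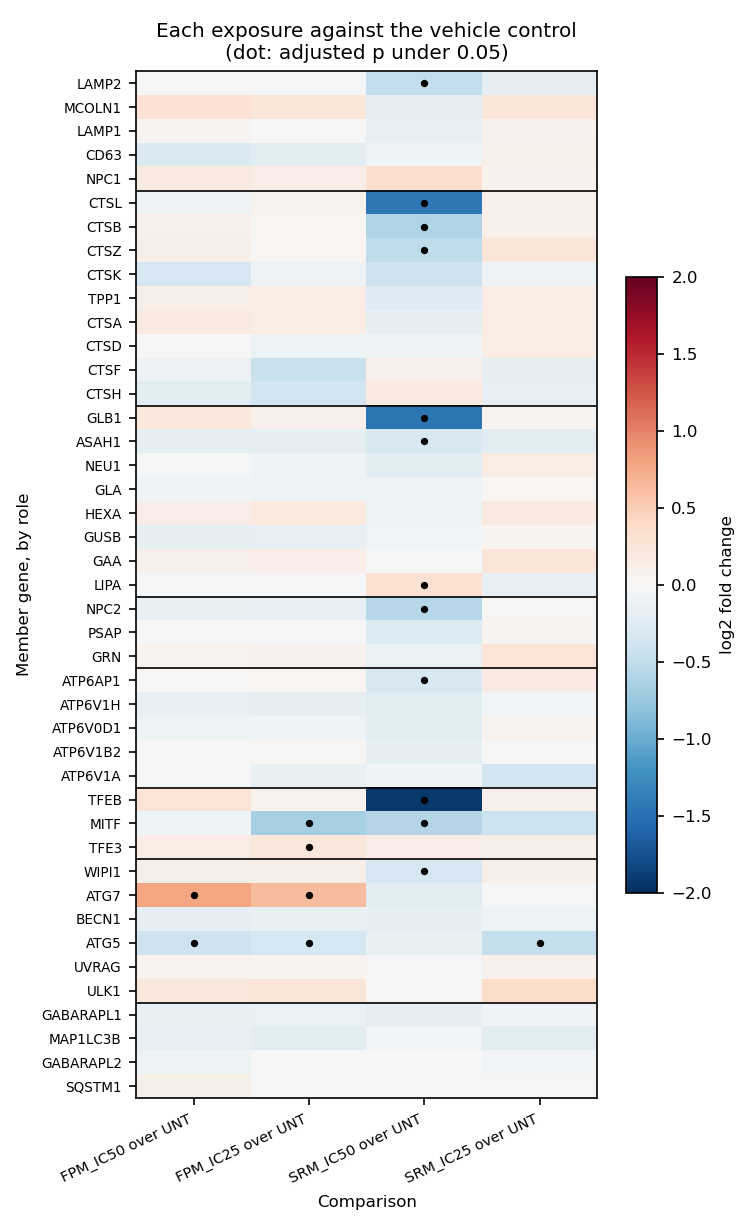
Log2 fold change of the 43 genes over UNT at FPM_IC50, FPM_IC25, SRM_IC50 and SRM_IC25, in order of role, blue for lower and red for higher; dots mark an adjusted p under 0.05. The dark blue cells of CTSL, GLB1 and TFEB stand in the SRM_IC50 column, and ATG7 is red in both FPM columns.

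ATG7 (chromosome 3, 11272309 to 11557665), the E1-like enzyme that activates ATG12 and the ATG8 proteins, rose in the FPM libraries. It was at 47.7, 35.6 and 39.5 CPM at FPM_IC50 and 40.6, 33.2 and 36.9 CPM at FPM_IC25, against 23.7, 25.0 and 22.01 CPM in UNT. All 6 FPM libraries were above all 9 others, and the log2 fold changes were 0.79 (SE 0.14, adjusted p = 0.000383) at FPM_IC50 and 0.64 (SE 0.13, adjusted p = 0.00255) at FPM_IC25. ATG7 shares 1596 of its 8833 exon bases with VGLL4 on the other strand, which averaged 88.9 ± 1.84 CPM at FPM_IC50, 96.2 ± 3.41 CPM at FPM_IC25 and 88.4 ± 4.62 CPM in UNT (SD, n = 3 each). The antisense share of the same libraries was higher, as given above, and its part in the ATG7 difference was not tested.

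ATG5 (chromosome 6, 106045423 to 106325791) was lower in the FPM libraries. It was at 39.8, 42.4 and 40.0 CPM at FPM_IC50 and 45.1, 41.0 and 41.9 CPM at FPM_IC25, against 50.5, 57.1 and 56.2 CPM in UNT. These groups did not overlap, at log2 -0.42 (SE 0.096, adjusted p = 0.00507) and -0.36 (SE 0.094, adjusted p = 0.0150). At FPM_IC25 the call ended without UNT replicate 2 or 3 and without FPM_IC25 replicate 2 or 3, with adjusted p from 0.0592 to 0.0816. Its exons overlap none on the other strand, and in a fit on such genes alone the log2 fold changes were -0.36 at FPM_IC50 (adjusted p = 0.111) and -0.30 at FPM_IC25 (adjusted p = 0.144).

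MITF and TFE3 were called at the lower FPM dose. MITF was at 8.57, 8.57 and 8.42 CPM at FPM_IC50 and 5.66, 5.29 and 6.08 CPM at FPM_IC25, against 9.30, 8.40 and 9.45 CPM in UNT. The FPM_IC25 values were all below those of FPM_IC50 and UNT (log2 -0.66, SE 0.14, adjusted p = 0.00285), and the FPM_IC50 values overlapped UNT (log2 -0.09, adjusted p = 0.767). In the fit on genes without exon overlap MITF at FPM_IC25 was at log2 -0.61 (adjusted p = 0.0504). Summed over 10 genes of melanocytes and retinal pigment epithelium, where MITF has known roles, the level was 608 to 819 CPM at FPM_IC50 and 568 to 714 CPM at FPM_IC25, against 274 to 302 CPM in UNT. BEST1, a channel of retinal pigment epithelium, took most of that sum at 453 ± 78.2 CPM at FPM_IC50 and 367 ± 70.0 CPM at FPM_IC25, against 1.74 ± 0.602 CPM in UNT. The pigment genes DCT and TYRP1 were lower at FPM_IC25 (log2 -1.93 and -1.21), and TYR and MLANA reached at most 0.149 and 0.232 CPM in any library. The part of these genes in the MITF difference was not tested. BEST1 rose in libraries whose antisense share was also higher, and whether its reads come from another gene was not tested. TFE3 was at 70.8, 78.5 and 75.3 CPM at FPM_IC50 and 76.5, 81.2 and 78.2 CPM at FPM_IC25, against 69.5, 63.9 and 68.7 CPM in UNT. The FPM_IC25 values were all above UNT (log2 0.22, SE 0.072, adjusted p = 0.0483), and that call ended without each of the 6 libraries in turn, with adjusted p up to 0.210. With UNT replicate 2 or 3, or FPM_IC25 replicate 2 or 3, left out, 2 of the 43 genes stayed called at FPM_IC25.

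Within SRM the 2 doses were set against each other, in a contrast that shares the SRM_IC50 libraries with the one against UNT. At SRM_IC50, 19 of the 43 genes were lower and 3 higher than at SRM_IC25 (51.2%, beside 26.9% of all genes), and the median was -0.22, against -0.02 over all genes. The lower ones were 44.2% of the 43, beside 13.2% of all genes. GLB1 was at 83.5, 91.0 and 87.9 CPM at SRM_IC50, against 247, 268 and 229 CPM at SRM_IC25 (log2 -1.50, SE 0.11, adjusted p = 7.96e-08). CTSZ was at 44.6, 46.3 and 47.9 CPM at SRM_IC50, against 72.0, 80.0 and 80.1 CPM at SRM_IC25 (log2 -0.74, SE 0.093, adjusted p = 2.07e-05). Both genes were fully apart between the doses. MCOLN1, GRN and CTSA, not called against UNT, were lower at log2 -0.41, -0.39 and -0.34 (adjusted p = 0.00729, 0.00226 and 0.00285). LIPA, ATP6V1A and ATG5 were the 3 higher ones, at log2 0.47, 0.30 and 0.33. With a correction for GC content 12 of the 22 calls remained, and MCOLN1, GRN, CTSA, ATP6V1A and ATG5 were among those that ended. Without SRM_IC25 replicate 2 the count was 14. The amnion and trophoblast sum was 523 to 593 CPM at SRM_IC50 and 2215 to 2668 CPM at SRM_IC25, with all 17 genes called lower. The pluripotency sum was 3224 to 3703 CPM at SRM_IC50 and 1671 to 1712 CPM at SRM_IC25, with 12 of 13 called higher. The part of both lists in these differences was not tested.

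Between the FPM doses none of the 43 genes was called by edgeR or by DESeq2, and 0.0105% of all genes were called. At an unadjusted p under 0.05 there was 1 (2.33%, beside 4.12% of all genes). That gene was MITF, with no overlap between 8.57, 8.57 and 8.42 CPM at FPM_IC50 and 5.66, 5.29 and 6.08 CPM at FPM_IC25 (log2 0.58, SE 0.14, adjusted p = 0.409). The difference between the 2 dose effects was tested as an interaction, SRM minus FPM. It passed in 14 of the 43 genes, 13 below 0 and LIPA above (32.6%, beside 14.6% of all genes, 8.01% below and 6.59% above 0). For TFEB the difference was -2.23 (SE 0.24, adjusted p = 1.2e-05), for GLB1 -1.61 (SE 0.15, adjusted p = 3.35e-06) and for CTSL -1.37 (SE 0.24, adjusted p = 0.00111). The doses themselves differ between the particles, as given above.

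**Figure D4:**
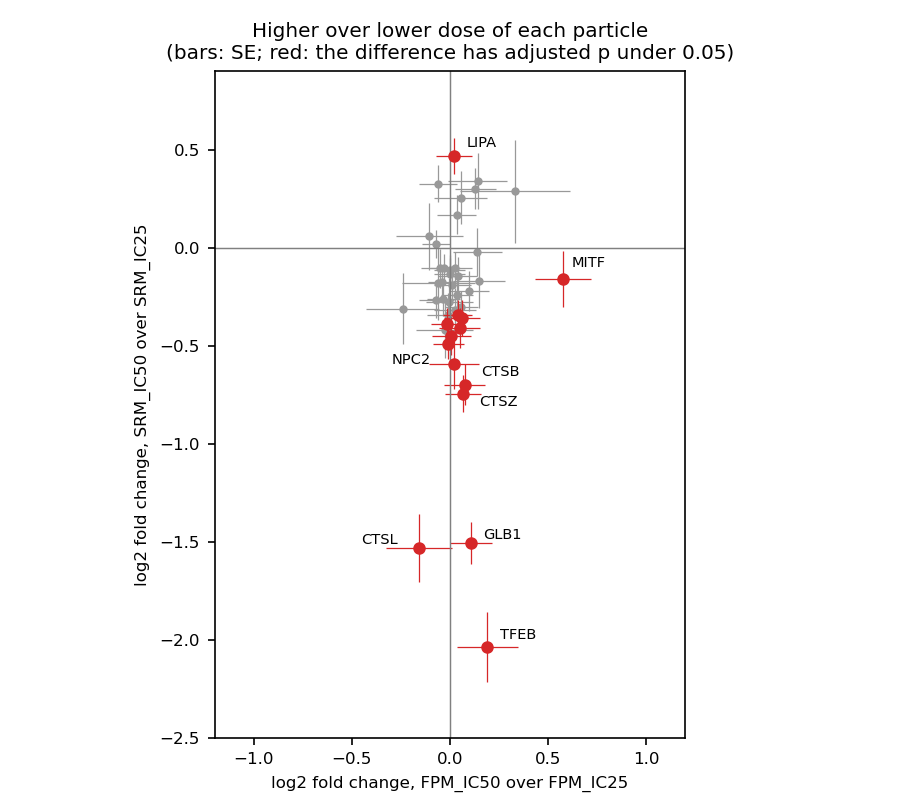
Log2 fold change of the higher over the lower dose of SRM (vertical) against that of FPM (horizontal) for the 43 genes, with standard errors as bars; red points have an adjusted p under 0.05 for the difference between the dose effects. TFEB, CTSL and GLB1 are lowest on the SRM axis and between -0.16 and 0.19 on the FPM axis, and MITF lies furthest right.

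FPM and SRM were also compared within an inhibitory level, at doses of 1.4 µg/mL FPM and 5.9 µg/mL SRM for the IC50. At this level 15 of the 43 genes were higher at FPM_IC50 than at SRM_IC50 and 3, CTSH, LIPA and ATG5, were lower. That is 41.9% of the 43, close to the 39.3% of all genes called, of which 23.2% were higher and 16.2% lower. The 3 lower calls each ended in a fit on the compared groups alone, as did the higher calls of TPP1 and LAMP1. CTSH also ended without FPM_IC50 replicate 2 or 3 or SRM_IC50 replicate 1 or 3 (adjusted p up to 0.185), ATG5 without FPM_IC50 replicate 1 or 3 or SRM_IC50 replicate 3 (up to 0.0986), and LIPA without FPM_IC50 replicate 1 (0.0552). Of the higher calls, TPP1 remained in 1 of 6 fits with a library left out, LAMP1 in 2 and NPC2 in 3. The other higher calls remained in all 6. Of the cell-state markers, all 17 amnion and trophoblast genes were higher and 11 of 13 pluripotency genes lower in the same contrast, and their part was not tested. TFEB was at 8.96, 9.96 and 12.8 CPM at FPM_IC50, against 2.24, 2.24 and 2.46 CPM at SRM_IC50 (log2 2.2, SE 0.18, adjusted p = 7.64e-08). WIPI1 was at 26.3, 28.1 and 32.4 CPM at FPM_IC50, against 19.3, 21.0 and 23.3 CPM at SRM_IC50 (log2 0.46, SE 0.10, adjusted p = 0.00156). At the IC25, with 0.00062 µg/mL FPM and 0.003 µg/mL SRM, ATG7 was the one gene called (2.33%, beside 10.5% of all genes, 9.89% being higher), higher at FPM_IC25 (log2 0.68, SE 0.13, adjusted p = 0.00145).

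Beyond the 43 genes, 5 lists of further lysosome, autophagy and mTORC1 genes held 157 genes, of which 155 were tested. At SRM_IC50 against UNT 22 were lower and 4 higher (16.8%, beside 17.6% of all genes). Among 45 further lysosomal genes 10 were lower and 2 higher (26.7%, beside 17.6% of all genes). The lower calls alone were 22.2%, beside 9.59% of all genes. CTSV, a close relative of CTSL whose reads may be hard to separate from it, averaged 256 ± 31.5 CPM at SRM_IC50 and 715 ± 113 CPM in UNT (log2 -1.48, SE 0.13, adjusted p = 9.97e-07). MANBA, the β-mannosidase, averaged 39.2 ± 2.54 CPM at SRM_IC50 and 88.1 ± 3.75 CPM in UNT (log2 -1.16, SE 0.092, adjusted p = 2.71e-07). The groups did not overlap in either gene. The protease CTSO fell (log2 -0.84), as did ARSG, a sulfatase (log2 -0.75). The protease CTSC was higher, at 210.6 ± 21.4 CPM at SRM_IC50 and 132.4 ± 1.73 CPM in UNT (log2 0.67, SE 0.10, adjusted p = 0.000233).

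The other lists had fewer calls, and their shares stand beside the same 17.6% of all genes. Of 17 further proton pump genes 3 were lower (17.6%), with ATP6V1C2 at log2 -1.90 and ATP6V1B1 at log2 -1.73. Both are subunits with tissue-restricted forms and were at low levels here (1.39 ± 0.173 and 0.694 ± 0.383 CPM at SRM_IC50). Of 22 sorting genes 2 were lower (9.09%), the receptor SORT1 (log2 -0.59) and the tethering subunit VPS11 (log2 -0.40). Of 44 further autophagy genes 3 were lower (6.82%). These were VAMP8, a SNARE of autophagosome fusion (log2 -1.21), the cargo receptor OPTN (log2 -0.53) and the protease ATG4A (log2 -0.36). Of 27 genes around mTORC1 4 were lower and 2 higher (22.2%). SESN3, a sestrin, averaged 194 ± 28.1 CPM at SRM_IC50 and 323 ± 45.5 CPM in UNT (log2 -0.74, SE 0.14, adjusted p = 0.00169). FNIP2 and LAMTOR3, which act with the Rag GTPases, and the amino acid transporter SLC38A9 were lower at log2 -0.49, -0.45 and -0.40.

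In the FPM libraries 7 of the 155 genes were called at FPM_IC50 against UNT (4.52%, beside 13.6% of all genes) and 10 at FPM_IC25 (6.45%, beside 14.2%). ATG10, an E2-like enzyme that joins ATG12 to ATG5, averaged 336 ± 96.0 CPM at FPM_IC50 and 321 ± 90.6 CPM at FPM_IC25, against 14.2 ± 1.82 CPM in UNT. It shares 374 of its 5449 exon bases with RPS23, a ribosomal protein gene with group means of 987 to 1378 CPM. ATP6V1C2 averaged 93.8 ± 16.03 CPM at FPM_IC50 and 75.3 ± 16.7 CPM at FPM_IC25, against 5.05 ± 0.678 CPM in UNT. It shares 1042 of its 3483 exon bases with genes on the other strand, among them PDIA6, with group means of 405 to 472 CPM. Both genes thus rose in libraries whose antisense share was also higher, and whether their reads come from the overlapping genes was not tested. ARSG rose to 11.8 ± 0.978 CPM at FPM_IC50 and 10.9 ± 0.733 CPM at FPM_IC25, against 6.91 ± 0.853 CPM in UNT. It shares 972 of its 6587 exon bases with WIPI1 and SLC16A6 on the other strand, and their part was likewise not tested. The pump gene ATP6V1G2 rose by log2 0.64 at FPM_IC50 and 0.60 at FPM_IC25. The conjugation enzyme ATG3 and the receptor TAX1BP1 were lower at both doses, at log2 -0.43 and -0.36 at FPM_IC50 and -0.37 and -0.34 at FPM_IC25. So was the thioesterase PPT1 (log2 -0.29 and -0.25), which shares 1189 of its 5088 exon bases with CAP1 on the other strand. RB1CC1, a scaffold of the ULK1 complex, and the GTPase gene RRAGD were lower at FPM_IC25 (log2 -0.45 and -0.47). The count was 15 at FPM_IC50 without UNT replicate 1, and 4 to 6 at FPM_IC25 without UNT replicate 2 or 3 or FPM_IC25 replicate 2 or 3.

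At SRM_IC25 against UNT 8 of the 155 genes were called (5.16%, beside 4.37% of all genes), 2 higher and 6 lower. RB1CC1 averaged 79.5 ± 4.81 CPM at SRM_IC25 and 120.2 ± 9.02 CPM in UNT (log2 -0.60, SE 0.098, adjusted p = 0.0172). TAX1BP1, the protease ATG4C and the mitophagy receptor BNIP3L were lower at log2 -0.41, -0.41 and -0.35, as were TMEM192 of the lysosomal membrane (log2 -0.37) and the pump subunit ATP6V1C1 (log2 -0.38). ARSA, the sulfatase that degrades sulfatides, was higher (log2 0.45). These calls ended without UNT replicate 2 or 3 and without SRM_IC25 replicate 2 or 3; 3 remained without SRM_IC25 replicate 1. DESeq2 called 21 at this dose with every library in the fit.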

How the data were processed

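Gene-level counts and FPKM of 15 polyA RNA-seq libraries from a directional kit, 3 in each of 5 groups, were taken as the authors deposited them. Per the submitters' processing notes, FastQC 0.11.7, HISAT2 2.2.1, SAMtools 1.10, featureCounts of Subread 2.0.15, DESeq2 and the GRCh38 build were used; neither the strand setting nor the annotation release is given in the sources used here. The deposited counts are raw read counts per gene, and the deposited FPKM values are the authors' own, scaled for length and depth. Of 60675 genes, 57055 were placed on GENCODE release 29 for positions and exon overlap. The 43 genes were matched by symbol to Ensembl identifiers. The members, lists and tests were chosen with earlier results of these data known.

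Genes were filtered with edgeR's filterByExpr, leaving 19012, and scaled by TMM. All groups entered one edgeR 4.0.16 quasi-likelihood fit (R 4.3.3) with 8 pairwise contrasts and the difference between the 2 dose effects, and p-values were adjusted by Benjamini-Hochberg over all genes tested. A gene was called at an adjusted p under 0.05. Standard errors come from the fitted model. Totals of 9.34 to 58.2 M counts put the floor of 3 counts at 0.0504 to 0.309 CPM. Alternatives were DESeq2 size factors, DESeq2 1.42.0, no filter, a replicate block, limma 3.58.1 on log2(FPKM + 1) and log2(FPKM + 0.1), an offset for GC content, genes without exons overlapping the other strand, the compared groups alone, and each library left out. The fit was tested on simulated data.

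Same-numbered libraries deviated together in every pair (r over 0.1) for FPM_IC50 against FPM_IC25 alone, at r = 0.164 to 0.24; the numbers come from the labels, which do not say what they share. Every library's value is given for genes called against UNT and for TFEB, TFE3, MITF, SQSTM1, MAP1LC3B, LAMP1 and CTSD, and up to 4 called genes of at least 1 CPM are named from each further list and comparison, those with the largest absolute log2 fold change. BEST1, CTSC, DCT, TYRP1, the osteoblast markers named high, and the macrophage and osteoclast markers named, were chosen after their values were seen. Start windows came from RefSeq on GRCh38.p14, with several starts for some genes, and a gene counted as holding a motif where any of its windows did.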

Additional observations from a re-analysis of the deposited data

Results flagged for a closer look

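For 14 of the 43 genes (32.6%) the effect of dose, IC50 over IC25, differed between SRM and FPM. Of all genes 14.6% were called by the same test, 8.01% below 0 and 6.59% above. The test was of the difference itself, an interaction term in edgeR's quasi-likelihood test with Benjamini-Hochberg adjustment. The doses differ between the particles. Differences are log2 values, SRM minus FPM, from 3 libraries in each of 4 groups. For TFEB the difference was -2.23, made up of -2.04 within SRM and 0.19 within FPM. For GLB1 it was -1.61, from -1.50 within SRM and 0.11 within FPM. For CTSL it was -1.37, from -1.53 within SRM and -0.16 within FPM. In these 3 genes the FPM effect was small beside that of SRM.

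Among the other proteases the difference was -0.81 for CTSZ, -0.77 for CTSB and -0.38 for CTSA (adjusted p = 0.000550, 0.00205 and 0.0238). MITF, at -0.74 (adjusted p = 0.0224), was -0.16 within SRM and 0.58 within FPM, the larger of the 2 parts. Neither of these dose effects was called on its own (adjusted p = 0.45 and 0.409). NPC2 was at -0.62, ATP6AP1 at -0.48, MCOLN1 at -0.46 and WIPI1 at -0.46. NEU1, a sialidase, was at -0.42 and GRN at -0.38. LIPA was the one gene on the higher side, at 0.45 (adjusted p = 0.0292), from 0.47 within SRM and 0.02 within FPM.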

How the results depend on the processing

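Counts of called genes among the 43 are given first, by edgeR unless another tool is named. No called value changed sign under the alternatives run, and TFEB, MITF, GLB1, CTSL, CTSB, CTSZ, LAMP2 and NPC2 stayed called at SRM_IC50 against UNT in every alternative that gave them a value. At SRM_IC50 against UNT, 12 were called and 7 of 25 on genes without exons overlapping the other strand, where fewer genes are tested. At SRM_IC25 against UNT 1 was called, with 0 under the GC offset, 0 on the compared groups alone and 6 by DESeq2. At FPM_IC25 against UNT 4 were called, with 2 under the GC offset and 0 without overlapping exons, and at FPM_IC50 2, with 0 without overlapping exons and 5 on log2(FPKM + 1) and on log2(FPKM + 0.1). For FPM_IC25 against SRM_IC25 1 was called, with 2 without the filter, 0 without overlapping exons and 2 by DESeq2. The fit without overlapping exons leaves ATG7 out, so its calls in these FPM contrasts could not remain there. Among the 155 further genes, 26 were called at SRM_IC50 and 17 of the 88 tested without overlapping exons. At SRM_IC25 8 became 4 without the filter, 0 under the GC offset, 2 without overlapping exons, 0 on the compared groups alone and 21 by DESeq2. At FPM_IC25 10 became 0 and at FPM_IC50 7 became 0 without overlapping exons, and the FPM_IC50 count was 4 on the compared groups alone. ATG10, ATP6V1C2, ARSG and PPT1 have such exons and were not in the fit without them. The causes were not tested. Leaving out 1 library gave 9 to 14 calls at SRM_IC50, 0 to 2 at SRM_IC25, 2 to 3 at FPM_IC25, 2 to 3 at FPM_IC50, 14 to 19 between the SRM doses, 0 between the FPM doses, 1 between particles at the IC25 and 13 to 18 at the IC50. For the 155 genes it gave 20 to 28, 0 to 10, 4 to 13 and 5 to 15 at SRM_IC50, SRM_IC25, FPM_IC25 and FPM_IC50.

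With the replicate number as a block, the count was 0 between the FPM doses, the one contrast where the numbers paired libraries, as without it. Elsewhere the libraries share only a number. There the block gave 16 calls at SRM_IC50, 7 at SRM_IC25, 5 at FPM_IC25, 2 at FPM_IC50, 26 between the SRM doses, 5 for FPM_IC25 against SRM_IC25 and 23 for FPM_IC50 against SRM_IC50. Among the 155 further genes it gave 36, 35, 24 and 19 at SRM_IC50, SRM_IC25, FPM_IC25 and FPM_IC50. The lowest and highest correlations of same-numbered libraries over those contrasts were -0.122 and 0.368.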
